A study of Mus musculus with 8 samples.

Results

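The CCN genes were followed in infarcted and sham-operated mouse hearts: Cyr61, Ctgf, Nov, Wisp1 and Wisp2, the older symbols under which the count tables list Ccn1 to Ccn5. They were chosen by symbol as 5 of the 24062 genes present in both count tables, and all 5 were among the 15508 genes with enough counts to be tested. Hearts came from male C57BL/6 mice aged 8 to 12 weeks. In the infarcted groups (myocardial infarction, MI) the left anterior descending coronary artery was tied, and ischemic tissue of the left ventricular free wall was taken after 1 day or 3 days. In the sham groups the artery was not tied, and each day had its own sham controls. Each of the 4 groups held 2 mice, whose libraries are called A and B. All were mice of 1 strain and 1 sex, and the labels name no altered gene or drug. The tissue held every cell type of the wall, so that fewer cells of a type and less RNA per cell cannot be told apart.

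CCN proteins are secreted, cysteine-rich proteins of the extracellular matrix that act on nearby cells. They bind integrins, syndecans and lipoprotein receptors and hold or modify growth factors such as TGF-beta. Cyr61 and Ctgf are textbook targets of the Hippo pathway, in which the cofactors YAP and TAZ enter the nucleus and act through TEAD transcription factors, and Ctgf is also a target of TGF-beta signalling in fibrosis. Wisp1 and Wisp2 were named as Wnt-induced genes. Nov is often described as a counterpart that restrains fibrotic responses.

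Positions are from RefSeq annotation of GRCm38.p6, the assembly of mm10, for whole genes. Cyr61 (Ensembl ENSMUSG00000028195) lies at chr3:145646971-145649985 and Ctgf (ENSMUSG00000019997) at chr10:24595442-24598683. Nov (ENSMUSG00000037362) and Wisp1 (ENSMUSG00000005124) lie on the same chromosome, at chr15:54745910-54753762 and chr15:66891369-66923201. Wisp2 (ENSMUSG00000027656) lies at chr2:163820752-163833146. Its longest coding sequence has 756 bases against 1047 in Ctgf, 1065 in Nov, 1104 in Wisp1 and 1140 in Cyr61, and its protein lacks the carboxy-terminal cystine-knot domain of the others. The first bases of Ctgf overlap the gene Gm15270, and no source here states whether the counting used strand. Reads in that overlap cannot be assigned to one of them.

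The promoter of Cyr61 is shown because, of the 5 members, only this gene was in the promoter set used here. Cyr61 is an immediate-early gene and a standard TEAD target, and the TEAD factors and their targets are described further on. The 250 bases before its start, on the minus strand at chr3:145649986-145650235 (RefSeq, GRCm38.p6), are printed 5′ to 3′. Capitals mark, in order, the TEAD motif, the core of a cyclic AMP response element (CRE) on the opposite strand, and the TATA box.
Cyr61: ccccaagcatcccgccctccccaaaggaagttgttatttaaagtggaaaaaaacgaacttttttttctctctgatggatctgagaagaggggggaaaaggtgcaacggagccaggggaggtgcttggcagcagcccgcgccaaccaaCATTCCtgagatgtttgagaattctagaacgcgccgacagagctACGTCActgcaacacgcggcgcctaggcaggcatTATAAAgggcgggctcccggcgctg
The TEAD motif CATTCC began 103 bases before the start, the CRE core TGACGT 59 bases before it and the TATA box TATAAA 25 bases before it, with no overlap among them. Searched on both strands, CATTCC was present in 12.6% of 32851 promoters of the same length, TGACGT in 6.47% and TATAAA in 12.4%. The AP-1 motif TGANTCA, the SMAD motif CAGACA and the HIF motif ACGTG were not in this window, against 6.75%, 17.1% and 16.6% of all promoters.

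The libraries differed in depth and quality measures. Depth and the share of mitochondrial reads moved with the groups, while reads in receptor genes also differed between the 2 libraries of each group at 1 day. Total gene counts were 12662237 and 7382490 in the MI libraries at 1 day and 18831791 to 25041386 in the other 6. Levels are given as CPM, counts scaled to 1000000 per library after TMM normalization. A count of 3 in a library equalled 0.102 to 0.369 CPM. Mitochondrially encoded genes took 28.7% and 43.34% of transcript reads after MI at 1 day, 6.508% and 4.189% after MI at 3 days, and 13.88 to 16.56% after sham surgery. Of 1468 chemosensory receptor genes, which the heart should hardly express, 92.2% had reads in MI library B and 50.7% in sham library B at 1 day. The share was 23.5% in MI library A at 1 day and 4.09 to 7.83% in the other 5. The median level of these genes in MI library B at 1 day was 0.492 CPM, and 95% of them were at or below 1.48 CPM. The sample numbers in the column names ran apart between MI and sham, and those of MI at 1 day stood furthest from all other groups, MI at 3 days included. A batch that coincided with MI cannot be told apart from MI. Nor can a batch that coincided with MI at 1 day be told apart from a difference between the days. Cardiomyocyte marker genes, which define the labelled tissue, summed to 128600 to 204400 CPM in the sham libraries, 108500 and 116000 CPM after MI at 1 day, and 8792 and 8764 CPM after MI at 3 days.

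**Figure D1:**
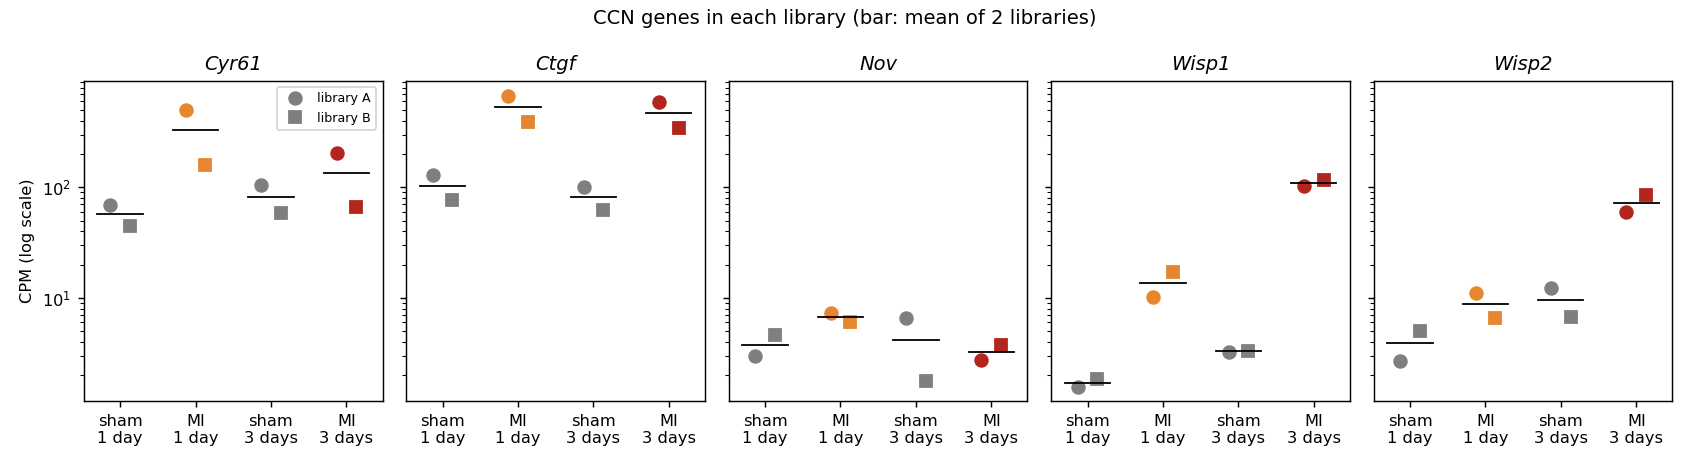
Level of each CCN gene in every library (CPM, log scale), by surgery and day, with circles for library A, squares for library B and a bar at the mean of 2 libraries. Ctgf was high after MI on both days, Wisp1 and Wisp2 reached their highest levels after MI at 3 days, and Cyr61 varied most between the MI libraries.

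The comparison of MI with sham at 1 day asks which of these genes had moved early after the injury. Ctgf, Cyr61 and Wisp1 rose, 3 of the 5 members, and Nov and Wisp2 did not pass the test. Over all genes tested, 19.3% rose and 19.7% fell at this day, with a median log2 fold change of 0.117, against a median of 2.38 over the 5 members. At 3 days Ctgf, Wisp1 and Wisp2 rose, again 3 of the 5, while Cyr61 and Nov did not pass. Over all genes, 31.7% rose and 23.7% fell at 3 days, with a median of 0.164, against 2.53 over the members. No member fell on either day by this test, edgeR's quasi-likelihood F test with Benjamini-Hochberg adjusted p under 0.05.

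Ctgf encodes connective tissue growth factor, a mediator of fibroblast activation and matrix deposition. At 1 day its level was 128.4 CPM in sham library A, 77.15 CPM in sham library B, 676.2 CPM in MI library A and 393.9 CPM in MI library B. At 3 days the sham libraries held 101.6 and 62.06 CPM and the MI libraries 597.7 and 346.8 CPM. All 4 MI libraries were above all 4 sham libraries, and library A was above library B in every group. The letters follow column order and do not pair libraries across groups. The mean rose from 102.8 ± 36.2 to 535 ± 200 CPM at 1 day (SD, n = 2) and from 81.84 ± 28 to 472.3 ± 177 CPM at 3 days. The log2 fold change was 2.38 at 1 day (SE 0.39, 5.21-fold, adjusted p = 0.00163) and 2.53 at 3 days (SE 0.39, 5.77-fold, adjusted p = 0.000432). The difference between the 2 effects was 0.15 with a 95% interval from −1.04 to 1.33 (adjusted p = 0.867), which includes differences in either direction. Ctgf passed the test in 16 of 16 other settings at 1 day (log2 fold change 1.93 to 2.80) and in 16 of 16 at 3 days (2.03 to 2.93).

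The transcript table splits Ctgf into 3 transcripts. The main one, of 2398 bases, took most of the reads, and a second one of 2490 bases took a share that differed between libraries. At 1 day that share of the Ctgf reads was 0.303% and 0.825% in the sham libraries, with 3 and 5 reads, and 4.82% and 6.37% in the MI libraries, with 189 and 103 reads. At 3 days it was 3.68% and 15.4% after sham surgery and 10.6% and 9.18% after MI. The MI libraries lay above the sham libraries at 1 day and between them at 3 days. No source here states how reads shared by the transcripts were divided.

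Cyr61 encodes an integrin ligand that is induced within hours by growth factors and mechanical strain. At 1 day, sham library A held 69.03 CPM, sham library B 45.13 CPM, MI library A 502.4 CPM and MI library B 159.7 CPM. At 3 days the sham libraries held 104.3 and 58.56 CPM and the MI libraries 202.7 and 66.53 CPM. The groups did not overlap at 1 day, but at 3 days MI library B lay between the sham libraries. The mean rose from 57.08 ± 16.9 to 331 ± 242 CPM at 1 day, and was 81.45 ± 32.4 after sham surgery and 134.6 ± 96.3 CPM after MI at 3 days. The log2 fold change was 2.54 at 1 day (SE 0.62, 95% interval 1.15 to 3.93, adjusted p = 0.0108) and 0.72 at 3 days (SE 0.59, −0.60 to 2.04, adjusted p = 0.326). Without MI library A of 3 days the value at 3 days turned to −0.35, and without MI library B it was 1.24, so its direction rested on 1 library. The effect at 3 days minus that at 1 day was −1.82 (SE 0.84, −3.70 to 0.06, adjusted p = 0.144), so a smaller effect at 3 days was not shown.

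The call on Cyr61 at 1 day depended on single libraries. Leaving out sham library A of that day gave 2.88 (adjusted p = 0.0535), leaving out sham library B gave 2.27 (adjusted p = 0.0911) and leaving out MI library A gave 1.47 (adjusted p = 0.105). It held without both B libraries of 1 day, which had the most reads in receptor genes (2.86, adjusted p = 0.0403). The 2 MI libraries differed 3.15-fold at 1 day and 3.05-fold at 3 days, against 1.53-fold and 1.78-fold in the sham pairs. As for Ctgf, library A was the higher one in each of the 4 groups.

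Wisp1 encodes a CCN protein that promotes fibroblast growth and matrix production. Its sham libraries were at 1.565 and 1.84 CPM at 1 day and 3.262 and 3.294 CPM at 3 days. After MI it stood at 10.22 and 16.98 CPM at 1 day and at 102.2 and 115.4 CPM at 3 days. Each MI library was above every sham library, and both libraries of 3 days were above both of 1 day. At 1 day the mean rose from 1.702 ± 0.194 CPM by 2.96 on the log2 scale, to 13.6 ± 4.77 CPM (SE 0.33, 7.78-fold, adjusted p = 0.000311). At 3 days it rose from 3.278 ± 0.0227 CPM by 5.05, to 108.8 ± 9.35 CPM (SE 0.27, 33.1-fold, adjusted p = 1.51e-06). This was the largest fold of the family on either day. In counts, the 4 sham libraries held 27 to 62 reads and the MI libraries 126 and 138 at 1 day and 2493 and 3390 at 3 days.

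Wisp1 was the only member whose effect differed between the days in edgeR's test, where 13.2% of all genes had a higher effect at 3 days. Its effect was larger at 3 days by 2.09 on the log2 scale (SE 0.47, 95% interval 1.04 to 3.14, adjusted p = 0.0112). Without sham library B of 1 day the difference was 1.97 and the call was lost (adjusted p = 0.0819). It was 2.35 without both B libraries of 1 day (adjusted p = 0.00836). Between the MI groups themselves, Wisp1 rose by 3.03 from 1 day to 3 days (SE 0.25, adjusted p = 1.92e-05) and Wisp2 by 3.00 (SE 0.38, adjusted p = 0.000229). These were 2 of the 5 members, against 23.4% of all genes.

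Wisp2 encodes the short CCN protein, which in several cell types opposes Ctgf. Its sham libraries A and B were at 2.666 and 5.059 CPM at 1 day and at 12.25 and 6.748 CPM at 3 days. The MI libraries were at 11.12 and 6.519 CPM at 1 day and at 59.53 and 85.63 CPM at 3 days. On each day both MI libraries were above both sham libraries, but the MI libraries of 1 day lay in or near the range of the sham libraries of 3 days. At 3 days the mean rose from 9.498 ± 3.89 CPM by 2.93 on the log2 scale, to 72.58 ± 18.5 CPM (SE 0.36, 7.65-fold, adjusted p = 9.58e-05).

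The Wisp2 means at 1 day were 3.862 ± 1.69 (sham) and 8.817 ± 3.25 CPM (MI). The log2 fold change of 1.23 had a 95% interval of 0.20 to 2.26 and did not pass after adjustment (adjusted p = 0.0592). It passed under scaling to library size alone (1.50, adjusted p = 0.0256), with DESeq2 (1.15, adjusted p = 0.0257), with MI library B left out (1.52, adjusted p = 0.0414) and with both B libraries of 1 day left out (2.06, adjusted p = 0.0377). The effect at 3 days minus that at 1 day was 1.71 (SE 0.58, 95% interval 0.40 to 3.01, adjusted p = 0.0601), and it was 0.88 without both B libraries of 1 day (adjusted p = 0.371). DESeq2 called this difference (1.65, adjusted p = 0.0284), as did the fit without sham library A of 3 days (2.20, adjusted p = 0.0356).

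Nov encodes a CCN protein found in endothelial and muscle cells. It was low in every library, at 2.956 and 4.599 CPM in the sham libraries and 7.302 and 6.027 CPM in the MI libraries of 1 day. At 3 days the sham libraries stood at 6.632 and 1.753 CPM and the MI libraries at 2.747 and 3.745 CPM. The groups did not overlap at 1 day, and at 3 days both MI libraries lay between the sham libraries. The log2 fold change was 0.83 at 1 day (SE 0.55, 95% interval −0.40 to 2.07, adjusted p = 0.253) and −0.36 at 3 days (SE 0.52, −1.52 to 0.81, adjusted p = 0.587). Leaving out sham library A of 3 days turned the value at 3 days to 0.90, and leaving out sham library B gave −1.02, so its direction rested on 1 library. Wisp3, the remaining CCN gene (Ccn6), is no member here. It had 0 counts in both sham libraries of 1 day and 1 to 12 in the others, and was not tested.

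**Figure D2:**
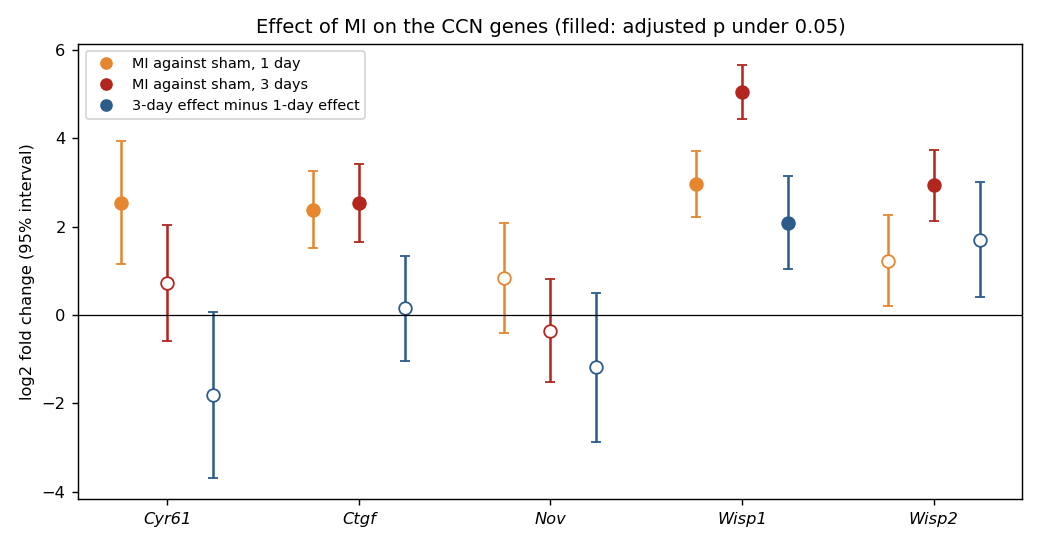
Log2 fold change of MI against sham at 1 day and at 3 days, and the 3-day effect minus the 1-day effect, for each CCN gene. Bars are 95% intervals of the edgeR fit and filled points passed at adjusted p under 0.05: Ctgf and Wisp1 on both days, Cyr61 at 1 day, Wisp2 at 3 days and the difference for Wisp1.

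In the sham groups no member passed between 1 day and 3 days, where 0% of all 15508 genes passed edgeR's test. At an unadjusted p under 0.05 there were 1211 genes, DESeq2 called 43 and limma-voom 0. The largest log2 differences among the members were 0.94 for Wisp1 (SE 0.38) and 1.29 for Wisp2 (SE 0.43), each with adjusted p = 0.631. They were 0.51 for Cyr61, −0.33 for Ctgf and 0.15 for Nov.

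Levels of different members can be compared only per length, for which the deposited reads of each transcript were divided by its length in kilobases and summed per gene. Ctgf and Cyr61 together made up most of the family's reads per kilobase in every library, and Nov at most 3.24%. The Ctgf to Cyr61 ratio on this scale was 1.46 and 1.30 in the sham libraries and 1.18 and 2.11 in the MI libraries at 1 day. At 3 days it was 0.800 and 0.796 after sham surgery and 2.47 and 4.41 after MI, the highest values of the 8 libraries. Wisp2 made up 8.27% and 20.1% of the family's reads per kilobase after MI at 3 days and 1.20% to 7.28% in the other 6 libraries. Wisp1 made up 5.12% and 9.59% after MI at 3 days and 0.526% to 1.68% elsewhere. In MI library B at 3 days, Wisp2 was thus above Cyr61 (12.9%). The scale was used only within a library.

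**Figure D3:**
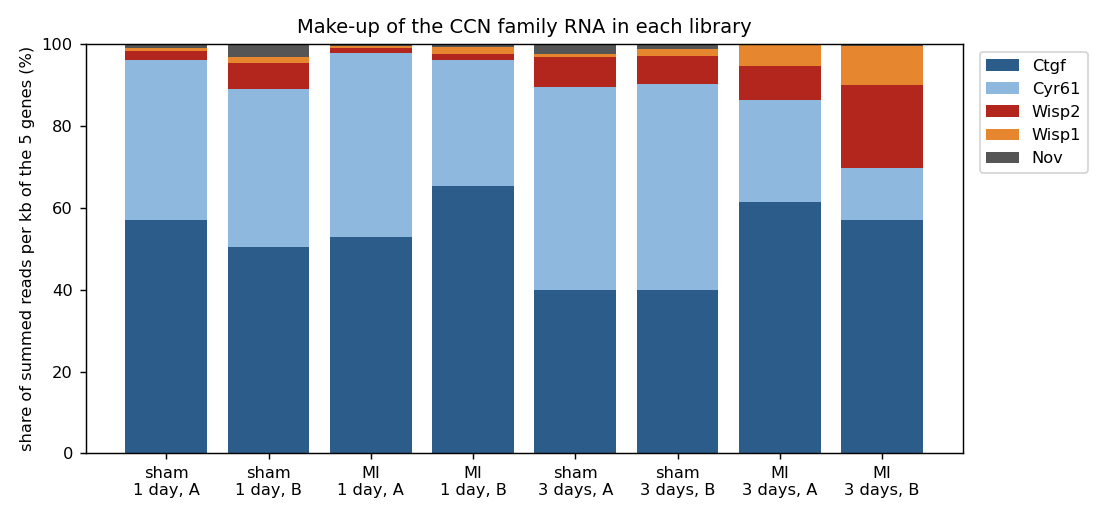
Share of each gene in the summed reads per kilobase of the 5 CCN genes (percent), 1 bar per library. Ctgf and Cyr61 filled most of each bar, and the shares of Wisp1 and Wisp2 were largest in the MI libraries of 3 days.

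Across the 8 libraries, the members followed one another to different degrees. Pearson's r of log2 CPM, a description over libraries that share 4 groups, was 0.909 between Wisp1 and Wisp2 and 0.81 between Cyr61 and Ctgf. It was 0.769 between Ctgf and Wisp1, 0.217 between Cyr61 and Wisp2, and −0.03 between Nov and Wisp1. Among 10846 or 10847 other tested genes that averaged 5 CPM or more, the nearest to Cyr61 were Pim1, a kinase gene (0.977), and Spry2 and Spry4, which encode feedback inhibitors of receptor tyrosine kinase signalling (0.975 and 0.964). Nearest to Ctgf were Mmp9, a matrix metalloproteinase gene of neutrophils (0.996), Etv6 (0.991) and Gprc5b (0.986). Nearest to Wisp1 were Tmem167, Tada1 and Rpl3 (0.995, 0.995 and 0.994), and nearest to Wisp2 were Nucks1, Desi2 and Xaf1 (0.993, 0.991 and 0.989). Kbtbd11, Ptgir and Bcap29 were nearest to Nov (0.916, 0.869 and 0.855). This measure reads the order and spacing of the libraries and not the size of a change: Wisp1 changed by 5.05 on the log2 scale at 3 days and Tada1 by 1.15.

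The Hippo pathway controls YAP (Yap1) and TAZ (Wwtr1), the cofactors upstream of Cyr61 and Ctgf. Of 17 tested genes of the pathway and its TEAD partners, 8 rose and 0 fell at 1 day (median log2 fold change 0.59), and 7 rose and 3 fell at 3 days (median 0.43). For this and every list below, the shares over all genes were 19.3% up and 19.7% down at 1 day. At 3 days they were 31.7% up and 23.7% down. Yap1 stood at 105 ± 2.52 CPM (sham) and 104 ± 31.8 CPM (MI) at 1 day (0.00, adjusted p = 0.994), and it fell from 94.2 ± 2.43 to 49 ± 1.73 CPM at 3 days (−0.94, adjusted p = 0.00375). Wwtr1 did not pass on either day (0.27, adjusted p = 0.329, and 0.18, adjusted p = 0.472). The TEAD factors went separate ways. Tead1, the most abundant of these by CPM, fell by 1.32 at 3 days (adjusted p = 0.000154), while Tead2 rose by 2.39 (adjusted p = 3.36e-05) and the TEAD cofactor Vgll3 by 2.22 (adjusted p = 5.72e-05). At 1 day the largest rises were Tead4 (1.47, adjusted p = 0.0397) and Mob1b, a kinase activator of the pathway (1.27, adjusted p = 0.000770). The call on Tead4 was lost in 8 of 16 other settings. The count of 8 became 2 when either sham library of 1 day was left out, 3 without MI library A or B of 3 days, and 6 without both B libraries of 1 day. With MI library A of 1 day left out, 2 genes fell at 1 day and 5 at 3 days.

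Other genes commonly listed as YAP and TEAD targets were mixed. Of 21 tested, 9 rose and 3 fell at 1 day (median 0.54), and 7 rose and 3 fell at 3 days (median 0.40). Among all genes, 19.3% rose and 19.7% fell at 1 day, and 31.7% rose and 23.7% fell at 3 days. Ankrd1, a stress-induced cofactor gene of cardiomyocytes, rose from 1250 to 8290 CPM at 1 day (2.73, SE 0.22, adjusted p = 9.83e-05), but stood at 1070 (sham) and 1080 CPM (MI) at 3 days (0.01, adjusted p = 0.973). The difference between its effects was −2.72 (SE 0.29, adjusted p = 0.000380). Igfbp3, which encodes a binding protein of insulin-like growth factors, rose by 3.31 at 1 day (adjusted p = 0.00125) and 2.87 at 3 days (adjusted p = 0.000917), and Myof, a membrane repair gene, rose by 2.46 at 3 days (adjusted p = 1.59e-05). The 3 falls at 1 day became 0 without sham library A and 5 without MI library A of that day. The 3 falls at 3 days became 6 without MI library A, MI library B or both B libraries of 1 day. The 7 rises at 3 days became 12 with scaling to library size alone.

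**Figure D4:**
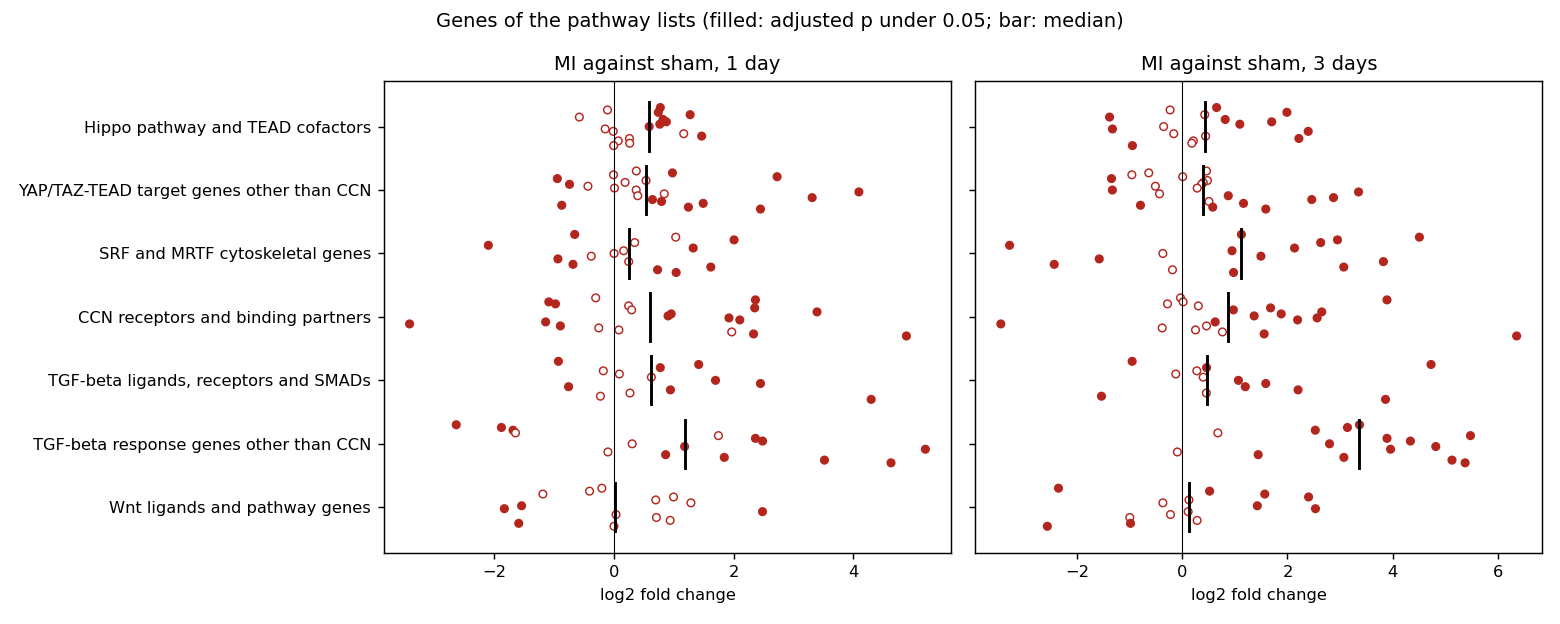
Log2 fold change of every tested gene in 7 lists of CCN-related pathways at 1 day and at 3 days, with filled points for adjusted p under 0.05 and a bar at the median of each list. The TGF-beta response list had the highest median on both days, and each list had members on both sides of 0.

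SRF and its cofactors of the MRTF family, which sense actin assembly, were listed with cytoskeletal genes they control. Of 15 tested, the 3 regulators Srf, Mkl1 and Mkl2 among them, 5 rose and 4 fell at 1 day (median 0.25) and 10 rose and 3 fell at 3 days (median 1.12), where 19.3% and 31.7% of all genes rose on the 2 days. Srf fell on both days, by 0.93 (adjusted p = 0.0246) and 1.58 (adjusted p = 0.000954). Actn1, a crosslinker of actin, rose by 2.01 at 1 day (adjusted p = 0.000303). Tagln, an actin-binding gene of smooth muscle and myofibroblasts, rose by 3.82 at 3 days (adjusted p = 1.26e-06), and Fhl2, a LIM-domain cofactor abundant in heart muscle, fell by 2.09 at 1 day (adjusted p = 9.83e-05) and 3.28 at 3 days (adjusted p = 1.49e-06). Without sham library A or B of 1 day, 3 rose and 1 fell at 1 day. Scaling to library size alone left 1 fall at 1 day, and 5 genes fell at 3 days without MI library A of 1 day.

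Receptors and binding partners of CCN proteins moved in both directions at 1 day and mostly upward at 3 days. Of 20 tested, 9 rose and 5 fell at 1 day (median 0.60), and 11 rose and 1 fell at 3 days (median 0.87). Shares over all genes were 19.3% up and 19.7% down at 1 day, and 31.7% up and 23.7% down at 3 days. Itgam, the integrin alpha-M subunit of neutrophils and macrophages through which Cyr61 and Ctgf bind leukocytes, rose from 34.6 ± 6.94 to 363 ± 118 CPM at 1 day (3.39, adjusted p = 0.000152). Fn1, the fibronectin gene, rose from 127 to 1890 CPM at 3 days (3.89, adjusted p = 8.14e-06). Itgb6, the epithelial integrin beta-6 subunit, fell by 3.41 at 1 day (adjusted p = 0.00102) and 3.44 at 3 days (adjusted p = 0.000106). The single fall at 3 days became 3 without MI library A of 1 day, and 2 without MI library B or both B libraries of that day.

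Of 13 tested ligands, receptors and mediators of TGF-beta signalling, 6 rose and 2 fell at 1 day (median 0.63), and 7 rose and 2 fell at 3 days (median 0.46). Among all genes, 19.3% rose and 19.7% fell at 1 day, and 31.7% rose and 23.7% fell at 3 days. Thbs1, whose product thrombospondin can activate latent TGF-beta, rose by 4.30 at 1 day (adjusted p = 0.000291) and 3.86 at 3 days (adjusted p = 9.13e-05). Ltbp2, a matrix protein gene of the latent TGF-beta binding protein family, rose by 4.73 at 3 days (adjusted p = 1.51e-06). Of the ligands, Tgfb2 rose by 2.45 at 1 day (adjusted p = 0.000113) and 1.59 at 3 days (adjusted p = 0.000103). Tgfb1 rose by 1.70 at 1 day (adjusted p = 0.00131) and 1.07 at 3 days (adjusted p = 0.00499, or 0.88 and adjusted p = 0.0569 without MI library A of 3 days). Tgfb3 fell by 0.75 at 1 day (adjusted p = 0.0272) and rose by 1.20 at 3 days (adjusted p = 0.000790), a difference of 1.95 (adjusted p = 0.00217). The fall of Tgfb3 lost its call in 5 of 16 other settings, and the 2 falls at 1 day became 1 with scaling to library size alone, without sham library A or B, or without both B libraries of 1 day.

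Response genes of TGF-beta other than the CCN genes had 8 rises and 3 falls among 15 tested at 1 day (median 1.18) and 13 rises and 0 falls at 3 days (median 3.37). All genes tested had 19.3% rises and 19.7% falls at 1 day, and 31.7% rises and 23.7% falls at 3 days. Tnc, which encodes the matrix protein tenascin C, rose by 4.63 at 1 day (adjusted p = 0.000148) and 5.37 at 3 days (adjusted p = 7.12e-06). Cthrc1, a secreted protein gene of activated fibroblasts, was at 0.231 (sham) and 0.900 CPM (MI) at 1 day, and rose from 3.04 to 136 CPM at 3 days (5.48, adjusted p = 1.26e-06).

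Genes of Wnt signalling, after which the Wisp genes were named, had calls in both directions on both days. Of 14 tested, 1 rose and 3 fell at 1 day (median 0.02), and 5 rose and 3 fell at 3 days (median 0.12). All genes tested had 19.3% rises and 19.7% falls at 1 day, and 31.7% rises and 23.7% falls at 3 days. Sfrp2 and Frzb, which encode secreted Wnt-binding proteins, rose by 2.53 (adjusted p = 7.51e-05) and 2.40 (adjusted p = 0.000322) at 3 days. At 1 day Sfrp2 fell by 1.83 (adjusted p = 0.0334), a call lost in 8 of 16 other settings. Wnt5a, a ligand of non-canonical signalling, fell by 1.59 at 1 day (adjusted p = 0.00794, or adjusted p = 0.0507 without sham library B). At 1 day the 3 falls became 0 without sham library B, the single rise became 0 without sham library A or B and 2 with scaling to library size alone. At 3 days the 5 rises became 2 without sham library B or MI library B and 3 without MI library A, and the 3 falls became 1 without MI library A or B.

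Markers of several cell types differed between the groups, some upward and some downward after MI. The 8 markers of activated fibroblasts, none at 0 in any library, summed to 341.5 to 498.9 CPM in 6 libraries and to 5136 and 4834 CPM after MI at 3 days, where Wisp1 and Wisp2 were highest. Of these 8, 3 rose and 1 fell at 1 day and 7 rose at 3 days, among them Postn (periostin) from 150 ± 40.5 to 4230 ± 241 CPM (4.82, adjusted p = 1.49e-06). Postn made up most of the sum after MI at 3 days. At 1 day these markers summed to 359.8 and 498.9 CPM in the MI libraries and 413.8 and 341.5 CPM in the sham libraries. Within that sum Postn rose from 98.2 to 223 CPM (adjusted p = 0.00317), Ltbp2 from 3.90 to 10.4 CPM (adjusted p = 0.00474) and Thbs4 from 8.25 to 20.2 CPM (adjusted p = 0.00267), while Acta2, the most abundant of them in the sham libraries, fell from 250 to 160 CPM (adjusted p = 0.0498). The 1 fall became 0 with scaling to library size alone and without sham library A or B of 1 day, MI library A of 1 day or any 1 library of 3 days, and it became 2 without MI library B or both B libraries of 1 day. The 9 general fibroblast markers summed to 2782 to 5937 CPM in the sham libraries, 2659 and 1849 CPM after MI at 1 day and 3472 and 2799 CPM after MI at 3 days. Of these 9, 1 rose and 3 fell at 1 day, and 5 rose and 1 fell at 3 days, counts that moved when single libraries were left out. The fall at 3 days was the abundant Gsn, from 2180 ± 990 to 234 ± 1.85 CPM, while Mfap5 rose from 37.3 to 301 CPM. The 8 neutrophil markers, Mmp9 among them, summed to 109.8 to 218.9 CPM in the sham libraries, 2105 and 1044 CPM after MI at 1 day and 954.4 and 511.7 CPM after MI at 3 days. Within each group, the library with the higher neutrophil sum was also the higher one in Cyr61, Ctgf and the endothelial sum. In sham at 1 day the endothelial sums were nearly equal, at 1395 and 1394 CPM. A relation between these levels was not tested.

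The 8 macrophage markers summed to 6449 and 6982 CPM after MI at 3 days and 873.8 to 1710 CPM in the other libraries. This sum was thus highest in the same libraries as Wisp1 and Wisp2. Of these 8, 2 rose and 2 fell at 1 day, counts that moved in other settings, and 8 rose at 3 days. At 1 day Cd14 rose from 31.9 to 214 CPM and C1qa fell from 156 to 42 CPM. Lyz2, at 4250 CPM after MI at 3 days, made up most of the sum there. The 9 endothelial markers summed to 2452 and 2127 CPM after MI at 1 day and 1310 to 2004 CPM elsewhere. Of these 9, 6 rose and 1 fell at 1 day, and 3 rose and 1 fell at 3 days, counts that moved in other settings. Kdr was the one that fell on both days, from 252 to 155 CPM and from 193 to 91.5 CPM. Shares over all genes were 19.3% up and 19.7% down at 1 day, and 31.7% up and 23.7% down at 3 days. The 9 smooth muscle and pericyte markers summed to 1410 to 1643 CPM in the sham libraries and 751.7 to 969.7 CPM in the MI libraries. Of these 9, 0 rose and 3 fell at 1 day, and 2 rose and 6 fell at 3 days. Much of the drop in the sum was Abcc9, from 825 to 372 CPM at 1 day and from 756 to 68.3 CPM at 3 days. Tagln went the other way at 3 days, from 26.3 to 372 CPM. With scaling to library size alone, 1 rose at 1 day. Of the 10 cardiomyocyte markers, 9 fell at 1 day and 10 at 3 days. No marker of these lists was at 0 in any library. Their part in the levels of the CCN genes was not tested.

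The authors' deposited table for 1 day gave the same members at an adjusted p under 0.05. In the authors' deposited table the log2 fold change of MI over sham at 1 day was 2.35 for Cyr61 (adjusted p = 4.67e-07), 2.24 for Ctgf (2.14e-09), 2.58 for Wisp1 (2.65e-05), 1.00 for Wisp2 (adjusted p = 0.202) and 0.66 for Nov (adjusted p = 0.436). At 3 days the authors' deposited table, with its sign turned to MI over sham, gave 4.84 for Wisp1, 2.71 for Wisp2, 2.31 for Ctgf, 0.50 for Cyr61 and −0.53 for Nov.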

How the data were processed

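Per the labels' protocols, ribosomal RNA was removed from total RNA before paired-end sequencing. The submitters' processing notes name mm10, DESeq2, HTSeq, TopHat2 2.0.14, Bowtie2 2.2.5, SAMtools 0.1.2 and FastQC, without roles. The authors deposited raw counts per gene, DESeq2 tables with a log2 fold change and an adjusted p-value, and transcript tables with read counts and transcript lengths, per the file headers. No source here names the software of the last. The sign of the deposited log2 fold change, read against the counts, was MI over sham in the table of 1 day, and the reverse in that of 3 days. Count columns give the group and no replicate number, so A and B follow column order. Both sham columns of 1 day in the count table carry the same name but hold different counts, and the transcript table names them apart, so A and B of that group are matched between the tables by order alone.

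Genes in both tables were filtered with filterByExpr (8554 not tested), scaled by TMM and fitted over all 8 libraries in edgeR 4.0.16 (R 4.3.3, robust quasi-likelihood F test, 2-sided, common dispersion 0.0602, 4 residual degrees of freedom). Benjamini-Hochberg adjustment ran over 15508 genes, with a threshold of 0.05. SE is the log2 fold change over the square root of F, and 95% intervals use the t distribution with the fit's degrees of freedom. Correlations used log2 CPM with a prior count of 2. Alternatives used DESeq2 1.42.0 and limma 3.58.1 (voom). The design had allowed for repeat elements in the transcript tables; these hold transcripts, whose reads were summed to genes. Limits of detection cover counting error alone.

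The genes and lists were chosen with earlier results of these data known. Genes named are the members, the 2 called members of each list with the largest change on each day and a mean over the 8 libraries of 5 CPM or more, Yap1, Wwtr1, Tead1, Ankrd1 and Tgfb1 to Tgfb3, and the 3 genes nearest to each member without a predicted-gene symbol. Those of the activated fibroblast list beyond this rule, and Srf, were added after their values were seen. Not every gene the rule selects is described.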

Additional observations from a re-analysis of the deposited data

Results flagged for a closer look

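The effect of MI on Wisp1 differed between the days, though a batch that coincided with MI at 1 day cannot be told apart from this. The effect at 3 days exceeded that at 1 day by 2.09 on the log2 scale (SE 0.47, edgeR adjusted p = 0.0112), with both MI libraries of 3 days (102.2 and 115.4 CPM) above both of 1 day (10.22 and 16.98 CPM). The difference was 1.53 to 2.47 over 15 other settings, and 14 of these kept the call.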

How the results depend on the processing

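No paired analysis was possible because the columns of the count tables carry no replicate number. With 2 libraries per group and 4 residual degrees of freedom, precision is limited by the number of mice for all members. Depth limits it as well where counts were low. Nov had 33 to 124 counts per library. Wisp1 had 27 to 62 in the sham libraries, and Wisp2 had 46 to 137 in the libraries of 1 day. Of the values of members for MI against sham, 80 of 80 under other settings kept their side of the threshold at 3 days and 73 of 80 at 1 day. With library size as the only scaling, the median of all genes was higher by 0.28 at 1 day and 0.26 at 3 days. The upward share of calls went from 49.5% to 67.9% at 1 day and from 57.2% to 66.7% at 3 days. The cause of the changes listed next was not tested. Fits that leave out a library also have a smaller number of samples. They kept the same tested genes, and a lone library is assumed to vary like the other groups.

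Wisp2 at 1 day (1.23) passed with library size alone (1.50), DESeq2 (1.15) and, chosen after seeing the data, without both B libraries of 1 day (2.06). Its difference between days (1.71) passed with DESeq2 (1.65), which made the count of members with a called difference 2 in place of 1. DESeq2 called 43 genes between the sham groups, and the fit without both B libraries of 1 day called 3, against 0. Leaving out 1 library at a time gave 1.47 to 3.14 for Cyr61 at 1 day, 0.74 to 1.76 for Wisp2 at 1 day, 1.53 to 2.47 for the Wisp1 difference and 1.17 to 2.20 for the Wisp2 difference. The count of members with a called difference was then 0 to 2. Over all genes, leaving out 1 library gave 3078 to 7234 calls at 1 day (6051 with all libraries), 1813 to 5022 for the difference (3799), 4407 to 7519 between the MI groups (7042) and 0 to 2 between the sham groups.

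Between the MI groups, Cyr61 was 1.30 lower at 3 days by log2 without passing (adjusted p = 0.0978). It passed without MI library B of 1 day (−1.90, adjusted p = 0.0470), without MI library A of 3 days (−2.32, adjusted p = 0.0323) and with both B libraries of 1 day left out (−1.90, adjusted p = 0.0430). Nov, at −1.04, passed without either sham library of 3 days (adjusted p = 0.0431 and 0.0416).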
